A study of Mus musculus with 8 samples.

Results

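Chitinases and their relatives were followed in the mouse esophagus after a detergent in the drinking water. The 6 genes are Chil1, Chil3, Chil4, Chit1, Chid1 and Ctbs, of 49315 gene identifiers counted in the series. They were chosen from their names, as genes of the glycosyl hydrolase 18 family, after the difference of Chil1 between the groups was known, so their differences between the groups are given as descriptions and no p-value is attached to any of them. The mice were wild type, with 5 control libraries from untreated animals and 3 from animals given the detergent sodium dodecyl sulfate (SDS) at 0.5% in their water for 14 days. The treatment text of the labels speaks of whole esophagus and the extraction text of cell pellets, so the material is not settled. The sources used here give no strain, age or sex. Nothing in the labels says that the libraries are from different animals, so every p-value behind a call measures the spread between these libraries, which may be technical.

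Many glycosyl hydrolase 18 proteins bind chitin, the polymer of fungal walls, insects and mites. Chit1 (chitotriosidase) and Chia1 (acidic mammalian chitinase) cut it, with a catalytic glutamate in a conserved stretch of the active site. Chil1 (also BRP-39, the counterpart of human YKL-40), Chil3 (Ym1) and Chil4 (Ym2) are secreted lectins that bind sugars without cutting chitin. Chil1 is known as a product of inflamed epithelium, macrophages and neutrophils, and Chil3 and Chil4 as products of alternatively activated macrophages and of inflamed epithelium. Chid1 is a lysosomal and secreted relative that binds the scavenger receptor stabilin-1, and Ctbs (chitobiase) is a lysosomal enzyme that trims the core of N-glycans.

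The stretch that sets enzymes apart from lectins is shown because Chil1 and Chil4 gave the largest values. Each line is 24 bases of the coding sequence in the GENCODE M21 transcripts, 5′ to 3′, and the capitals mark the codon at the place of the catalytic glutamate.
Chit1: gatggccttgaccttgactggGAG
Chia1: gatggactggacctggactggGAA
Chil1: gatgggctggatctcgcctggCTC
Chil3: gatggcctcaacctggactggCAG
Chil4: gatggcctcaacctggactggCAG
That codon read GAG in Chit1 and GAA in Chia1, CAG in Chil3 and Chil4, and CTC in Chil1. The stretch was the same in Chil3 and Chil4. Over the whole coding sequence Chil3 and Chil4 were identical at 95.4% of 1194 aligned bases, and their transcripts shared an unbroken run of 136 bases. Chil1 was identical to Chit1 at 67.2% and to Chil4 at 65.0% of aligned coding bases, with no shared run above 16 bases.

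The members lie at 4 places in mm10, the build of the deposited tables, each a protein-coding gene. Chil1 (ENSMUSG00000064246) lies on chromosome 1 from 134182176 to 134190181 on the plus strand, and Chit1 (ENSMUSG00000026450) lies 30636 bases before it on the same strand, from 134111242 to 134151540. Chil3 (ENSMUSG00000040809) lies on chromosome 3 from 106147554 to 106167564 and Chil4 (ENSMUSG00000063779) from 106201490 to 106219507, both on the minus strand. Ctbs (ENSMUSG00000028189) lies elsewhere on chromosome 3, from 146449795 to 146465849, and Chid1 (ENSMUSG00000025512) on chromosome 7 from 141493136 to 141539857.

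Total counts assigned to genes ranged from 22033866 to 29802362 per library. Levels are CPM, the counts of a gene at a fixed library size, with sizes scaled by the trimmed mean of M-values (TMM). The esophageal keratins Krt4 and Krt13 were each at 18750 CPM or more in every library. Libraries of a group were not alike: SDS library 3 lay near the controls for many genes that were high in SDS libraries 1 and 2, and control library 4 was rich in adipocyte transcripts, with 9086 CPM over 8 markers against 1381 to 2997 CPM in the other controls. The sum of 8 skeletal muscle markers was 25320 to 34470 CPM in controls and 21960, 18290 and 11560 CPM in SDS libraries 1, 2 and 3. Each SDS library was thus below every control in this sum, and SDS library 3 was the lowest. The part of this difference in the values of the members was not tested. In bulk RNA, fewer cells of a type and less RNA per cell cannot be told apart.

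Chil1 was the member with the largest difference. Its control libraries 1 to 5 measured 1.91, 1.06, 2.81, 5.91 and 2.63 CPM (56, 22, 76, 175 and 69 counts). Its SDS libraries 1 to 3 measured 362, 653 and 71.4 CPM (9215, 18576 and 1712 counts). The groups did not overlap, and the lowest SDS library was 12.1 times the highest control, which was control library 4. Per exon length, Chil1 ranked between 10619 and 15336 among all genes in the controls, and 381, 215 and 1955 in SDS libraries 1, 2 and 3.

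The means of Chil1 were 2.86 ± 1.84 CPM (SD, n = 5) in controls and 362 ± 291 CPM (SD, n = 3) in SDS, and the fitted log2 fold change was 6.97 ± 0.77 (SE). Of 17179 genes tested 7 had a larger one. Without SDS library 2 it was 6.22 and without SDS library 3 it was 7.46. All 6 members passed the filter on low counts. A gene was called where its edgeR quasi-likelihood p, after Benjamini-Hochberg adjustment over all tested genes, was below 0.05. Of the members 1, Chil1, was called higher in SDS, beside 0.623% of all tested genes, and 0 were called lower, beside 0.425%. The number of called genes, 180 in all, moved with single libraries, from 4 without control library 1 or SDS library 2 to 1222 without SDS library 3, and the calls named below were made with all 8 libraries unless stated. Chil1 was no longer called without control library 1 (log2 6.87), 2 (6.77), 3 (6.96) or 5 (6.94) or without SDS library 2. The group ranges did not overlap for 2 members, Chil1 and Chit1, both higher in SDS, where 6.49% of all tested genes were separated in that direction.

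Chil1 stood out in each SDS library, also in SDS library 3, which lay near the controls for many genes that were high in SDS libraries 1 and 2. On the log2 scale with a prior count of 2, Chil1 lay 7.16, 8.01 and 4.82 above its control mean in SDS libraries 1, 2 and 3. Among the 17179 tested genes these were the 13th, 7th and 2nd highest rises of the library. In SDS library 3 the serpin Serpinb3c alone was further above its control mean, by 5.21.

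**Figure D1:**
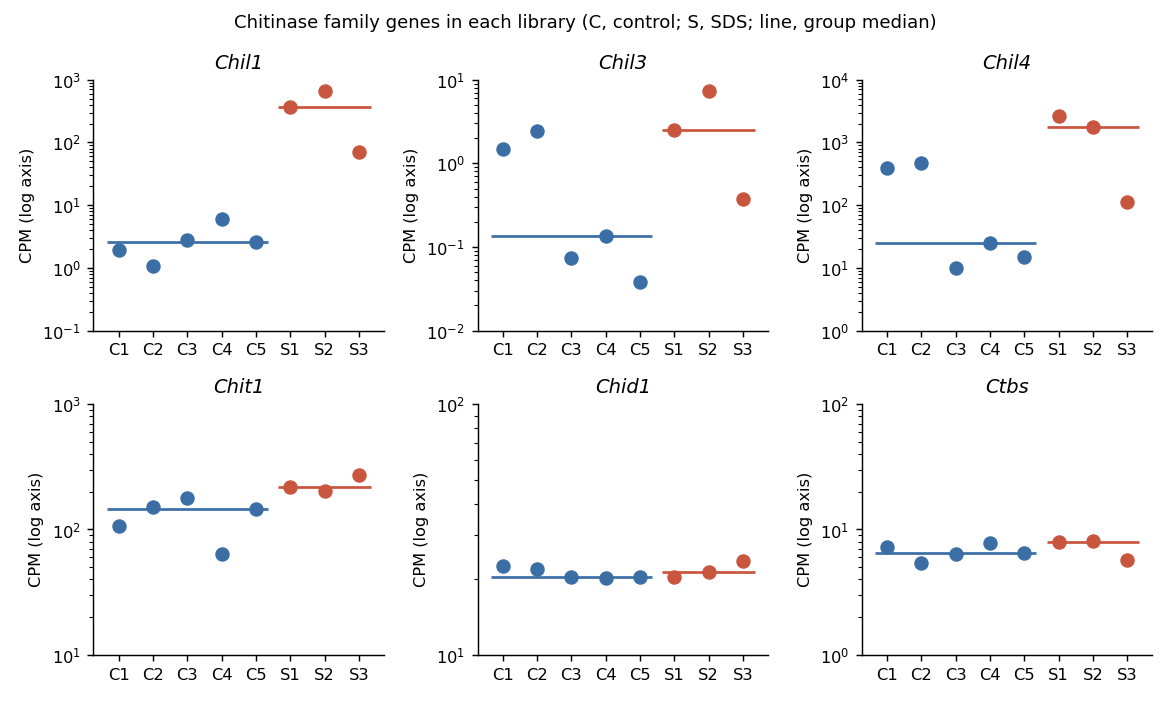
CPM of each member (log axes) in control libraries 1 to 5 (C1 to C5, blue) and SDS libraries 1 to 3 (S1 to S3, red), with lines at the group medians. Chil1 is higher in each SDS library than in any control, Chil3 and Chil4 are high in control libraries 1 and 2 as well as in SDS libraries 1 and 2, and Chid1 and Ctbs are level.

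Chil4, the lectin Ym2, had the highest median of the members in SDS, and it divided the control libraries. Control libraries 1 and 2 measured 389 and 471 CPM, and control libraries 3, 4 and 5 measured 10.04, 24.5 and 14.8 CPM. SDS libraries 1, 2 and 3 measured 2635, 1761 and 111 CPM (67049, 50131 and 2665 counts). SDS libraries 1 and 2 were thus above every control, and SDS library 3 lay between the higher 2 and the lower 3 controls, so the groups overlapped.

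In SDS libraries 1 and 2 Chil4 ranked 52 and 73 among all genes per exon length and took 0.272% and 0.188% of all counts. The means were 182 ± 228 CPM (SD, n = 5) and 1502 ± 1282 CPM (SD, n = 3), with a log2 fold change of 3.05 ± 1.40 (SE). Chil4 was not called with all libraries. The highest control was 46.9 times the lowest for Chil4 and 5.58 times for Chil1.

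Chil3, the lectin Ym1, was measured at low counts that went with those of its near copy Chil4. The control libraries had 44, 50, 2, 4 and 1 counts and the SDS libraries 63, 209 and 9 counts. Both control libraries 1 and 2 were above SDS library 3, and the groups overlapped. The log2 fold change was 2.06 ± 1.20 (SE), and it fell to 0.81 without SDS library 2.

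Counts assigned to Chil3 were a small part of those of the pair in every library. Their share of Chil3 and Chil4 together was 0.385%, 0.508%, 0.73%, 0.549% and 0.257% in controls 1 to 5. It was 0.0939% in SDS library 1 (95% Wilson interval 0.0734 to 0.12%), 0.415% in SDS library 2 (0.363 to 0.475%) and 0.337% in SDS library 3 (0.177 to 0.638%). SDS library 1 was below the others, with an interval that lay under those of SDS libraries 2 and 3 and of control libraries 1 to 4. The intervals cover counting error only. How multiply matching reads were treated is not given in the sources used here, so the division of reads within the pair is uncertain.

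The 250 bases before the RefSeq start sites are shown for the members that were high in SDS libraries 1 and 2 and for Chit1 (RefSeq, GRCm38.p6). All 6 members matched the RefSeq promoter table. Capitals mark matches, on either strand, to a STAT site TTCNNNGAA, a STAT6 site TTCNNNNGAA, an AP-1 site TGANTCA, a C/EBP site TTGCNNAA or the NF-kB consensus by name.
Chil1, chr1:134181906-134182155, plus strand: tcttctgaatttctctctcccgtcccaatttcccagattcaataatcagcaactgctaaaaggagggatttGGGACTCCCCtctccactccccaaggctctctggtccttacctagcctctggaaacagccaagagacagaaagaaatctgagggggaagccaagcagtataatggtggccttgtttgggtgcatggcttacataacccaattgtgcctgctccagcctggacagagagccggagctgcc
Chil3, chr3:106167565-106167814, minus strand: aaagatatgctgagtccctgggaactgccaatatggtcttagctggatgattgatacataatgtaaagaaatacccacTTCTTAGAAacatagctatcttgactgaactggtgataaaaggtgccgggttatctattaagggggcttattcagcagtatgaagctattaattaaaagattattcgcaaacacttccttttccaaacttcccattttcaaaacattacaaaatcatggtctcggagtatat
Chil4, chr3:106219480-106219729, minus strand: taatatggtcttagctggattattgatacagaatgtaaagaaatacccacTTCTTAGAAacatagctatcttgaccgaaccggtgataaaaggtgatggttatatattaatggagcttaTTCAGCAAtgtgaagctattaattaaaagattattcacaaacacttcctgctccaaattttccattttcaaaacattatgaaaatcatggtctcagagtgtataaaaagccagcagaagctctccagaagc
Chit1, chr1:134110992-134111241, plus strand: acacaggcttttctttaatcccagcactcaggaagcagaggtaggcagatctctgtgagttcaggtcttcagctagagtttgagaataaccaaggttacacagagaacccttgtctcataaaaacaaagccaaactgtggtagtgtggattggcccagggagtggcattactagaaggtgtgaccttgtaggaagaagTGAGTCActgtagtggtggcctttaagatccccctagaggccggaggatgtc
The Chil1 window held an NF-kB match and no other. The Chil3 and Chil4 windows shared a STAT match, Chil4 held a C/EBP match besides, and Chit1 held an AP-1 match. Ctbs, whose groups overlapped, also held an NF-kB match, but its window lies wholly inside the gene as the deposited tables place it. Among 32851 promoters of this length 7.25% held the NF-kB match, 7.02% the STAT match, 5.85% the STAT6 match, 9.56% the C/EBP match and 6.75% the AP-1 match. The Chil3 and Chil4 windows were identical at 91.0% of 221 aligned bases. A match is a stretch of letters and not a measured site. The RefSeq start of Chil4 lies inside the gene as the deposited tables place it, so the end of its window is transcribed in that annotation.

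Chit1, the chitinase that cuts chitin, was abundant in untreated esophagus and moderately higher in SDS. The controls measured 106, 152, 180, 63.5 and 146 CPM and the SDS libraries 217, 203 and 273 CPM. Every SDS library was above every control, the lowest by 1.13 times the highest control, and the highest value was in SDS library 3, where Chil1 and Chil4 were lowest of the group. The means were 130 ± 45.3 CPM (SD, n = 5) and 231 ± 36.7 CPM (SD, n = 3), with a log2 fold change of 0.84 ± 0.30 (SE), and Chit1 was not called.

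The level of Chit1 was set beside the epithelial content of each library. The summed CPM of 8 epithelial markers was lowest in control library 4 (40950) and highest in SDS library 3 (150100), the same libraries that held the lowest and the highest Chit1. For each 1000 CPM of these markers there were 1.45, 1.34, 1.33, 1.55 and 1.44 CPM of Chit1 in the controls and 2.45, 2.21 and 1.82 CPM in SDS. On this scale the controls lay close together and the SDS libraries lay above them. The sum is 88.4% to 95.2% Krt4 and Krt13, and against the other 6 markers, among them Krt14 that was called higher in SDS, the groups overlapped: 22.6 to 27.6 CPM of Chit1 for each 1000 in controls against 21.2, 23.2 and 36.1 in SDS. The part of epithelial content in the difference of Chit1 was not tested.

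Chid1 and Ctbs, the members of lysosomes, hardly varied. Chid1 measured between 20.2 and 22.6 CPM in controls and 20.4, 21.3 and 23.7 CPM in SDS, with a log2 fold change of 0.04 ± 0.09 (SE). Its coefficient of variation over the controls was 5.02%, against 34.9% for Chit1, 64.2% for Chil1 and 126% for Chil4. Ctbs measured between 5.44 and 7.77 CPM in controls and 8.02, 8.12 and 5.71 CPM in SDS, with a log2 fold change of 0.13 ± 0.18 (SE). For both genes the groups overlapped.

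The other 4 family genes in the annotation were low in every library. Ovgp1, the oviduct glycoprotein, had 196 counts over the 5 controls and 102 over the 3 SDS libraries and was the 1 of the 4 that passed the filter on low counts (log2 -0.16 ± 0.31, SE). Chia1 had 16 and 7 counts, Chil5 17 and 9, and Chil6 7 and 6. None of Chia1, Chil5 and Chil6 exceeded 0.267 CPM in any library. Lower levels or small increases of the 3 could not be detected at this depth, where 3 counts of a library are worth between 0.101 and 0.144 CPM.

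Levels can be compared between genes only per exon length, as RPKM, here CPM for each kilobase of exon. In untreated esophagus the order by median was Chit1 at 80.7 RPKM, Chil4 at 8.69, Chid1 at 1.89, Ctbs at 1.07, Chil1 at 0.939 and Chil3 at 0.0828 RPKM. Chit1 and Chil4 did not differ beyond their spread (35.01 to 99.0 and 3.57 to 167 RPKM), nor did Ctbs and Chil1, nor Chil1 and Chil3, while the ranges of Chil4 and Chid1 and of Chid1 and Ctbs did not overlap. The order rests on annotated exon lengths, 10855 bases for Chid1 and 6052 for Ctbs against 1632 to 2817 for the other members. With shorter transcripts the RPKM of Chid1 and Ctbs would be higher, and transcript lengths were not measured. In SDS the order was Chil4 at 625, Chil1 at 129, Chit1 at 120, Chid1 at 1.97, Chil3 at 1.52 and Ctbs at 1.33 RPKM. There, Chil4, Chil1 and Chit1 overlapped as neighbours and all 3 lay above Chid1.

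The make-up of the family's total differed between libraries. The total is in CPM and not set to exon length, so genes with longer exons weigh more in it. The 6 members together measured 122 to 654 CPM in controls and 3245, 2654 and 485 CPM in SDS libraries 1, 2 and 3. Chit1 was the highest member in control libraries 3, 4 and 5 and in SDS library 3, and Chil4 in control libraries 1 and 2 and SDS libraries 1 and 2. The highest member was the same per exon length. Chil1 made up 0.162% to 4.85% of the family's CPM in controls and 11.2%, 24.6% and 14.7% in SDS, without overlap.

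**Figure D2:**
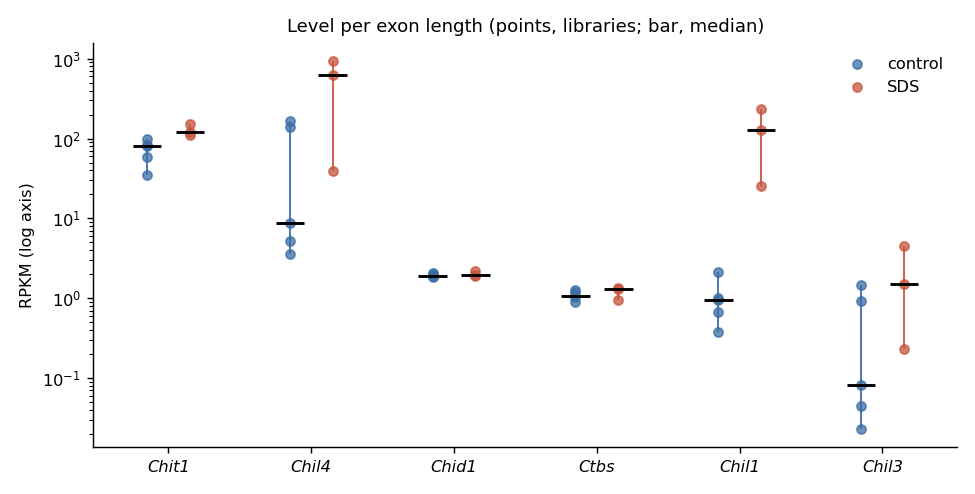
RPKM of each member (log axis), ordered by the control median, in control (blue) and SDS (red) libraries; points are libraries, thin lines the range and black bars the median. Chil1 moves from a median of 0.939 to 129 RPKM, to the level of Chit1, while Chid1 goes from 1.89 to 1.97 RPKM and Ctbs from 1.07 to 1.33 RPKM.

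The 10 genes with the pattern nearest to that of Chil1 were ranked over the 8 libraries. Nearness was measured as the root mean square difference over the 8 libraries of log2 CPM set to the control mean, and its median over 17142 genes was 4.22. The nearest was Saa3, an acute-phase serum amyloid of inflamed tissue, at 0.612, followed by the small proline-rich Sprr2d (0.797) and Sprr2i (0.871), the calprotectin subunit S100a9 (1.04), Sprr2b (1.08), the stress keratin Krt6b (1.24), the urate oxidase Uox (1.33), the beta-defensin Defb3 (1.40), S100a8 (1.40) and Sprr2h (1.59). Saa3 measured 28.7, 130 and 4.46 CPM in SDS libraries 1, 2 and 3 against 0.0963 to 1.25 CPM in controls, and like Chil1 it was highest in SDS library 2 and, among controls, in control library 4. In SDS library 3 Chil1 was 4.82 above its control mean (log2), and these 10 genes were between 1.43 and 4.18 above theirs. No test was made of this likeness, and all 10 share the 8 libraries with Chil1.

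**Figure D3:**
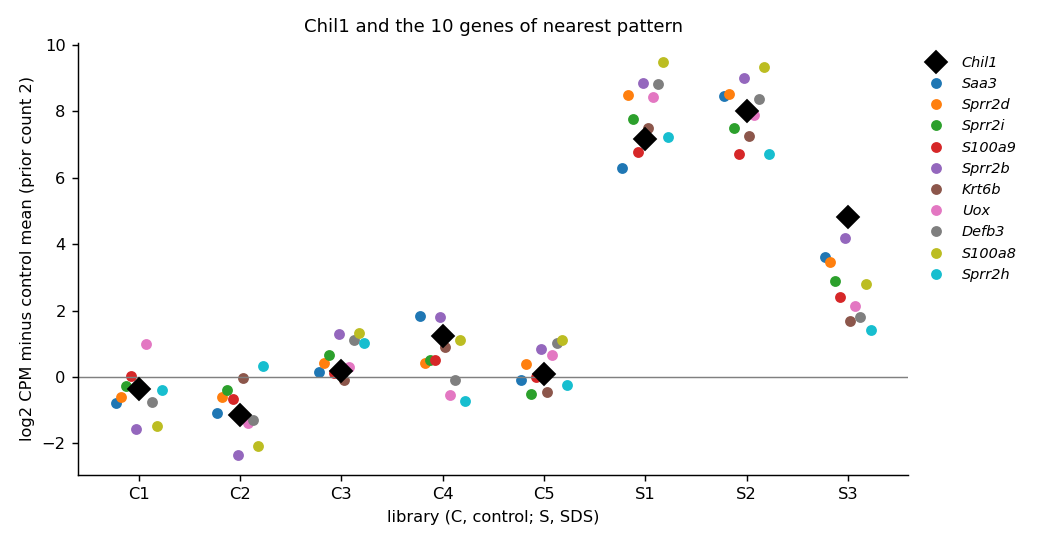
Log2 CPM minus the control mean (prior count 2) of Chil1 (black diamonds) and the 10 genes of nearest pattern (coloured points) in control libraries 1 to 5 (C1 to C5) and SDS libraries 1 to 3 (S1 to S3). They lie between -2.36 and 1.85 in controls and at 6.28 or more in S1 and S2, and in S3 Chil1 lies highest, at 4.82.

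Markers of neutrophils and macrophages, which can express Chil1, were measured beside it. The marker lists were chosen with earlier results of these data known. Of 14 neutrophil markers 6 were tested and 2 were called higher, beside 0.623% of all tested genes. The 2 were S100a8 and S100a9, which keratinocytes also express. The receptor Csf3r, listed as a neutrophil marker, measured 22.8, 45.4 and 0.542 CPM in SDS libraries 1, 2 and 3 against 0.337 to 0.811 CPM in controls, and Ly6g had no count in 6 of the 8 libraries and at most 0.105 CPM. Fpr1, Fpr2 and Mpo were above every control in each SDS library, at 1.16 CPM or less, and Mpo by 2, 5 and 2 counts. Camp went the other way, at 0.707, 0.246 and 0.667 CPM against 0.777 to 1.81 CPM in controls, and was not called. The sum of the 14 markers, most of it S100a8 and S100a9, was 110, 104 and 3.78 times its control mean in the order of the SDS libraries. Of 13 tested macrophage markers none was called by the edgeR quasi-likelihood test, beside 1.05% of all tested genes. All 13 had a positive log2 fold change (median 1.25, against -0.0047 over all tested genes). The lysozyme Lyz2 was above every control in each SDS library, at 392, 811 and 259 CPM against at most 227 CPM. The macrophage sum was 1.92, 3.95 and 1.05 times its control mean, in the order of the SDS libraries. Chil1 was 126, 228 and 24.9 times its control mean in the same libraries.

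Of 8 stressed keratinocyte markers 6 were called higher, beside 0.623% of all tested genes. The list was chosen with earlier results of these data known, so the number of calls may reflect that choice. Among the 6 were Krt6b, Krt16, Sprr2d and Lcn2, and Krt6a and Krt17 were not called. The sum of the 8 over its control mean was 118, 97.1 and 1.82 in the order of the SDS libraries. Cartilage, another known source of Chil1, gave 3.93 to 6.01 CPM over 10 markers in controls and 4.83, 4.95 and 4.00 CPM in SDS, and its collagen Col2a1 did not exceed 0.209 CPM. Stomach and airway markers summed to at most 12.5 CPM, with Gif, Gkn2 and Muc5ac at 0 in every library. Among controls, Chil1 was highest in the adipocyte-rich control library 4. The part of these cell types in the difference of Chil1 was not tested.

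**Figure D4:**
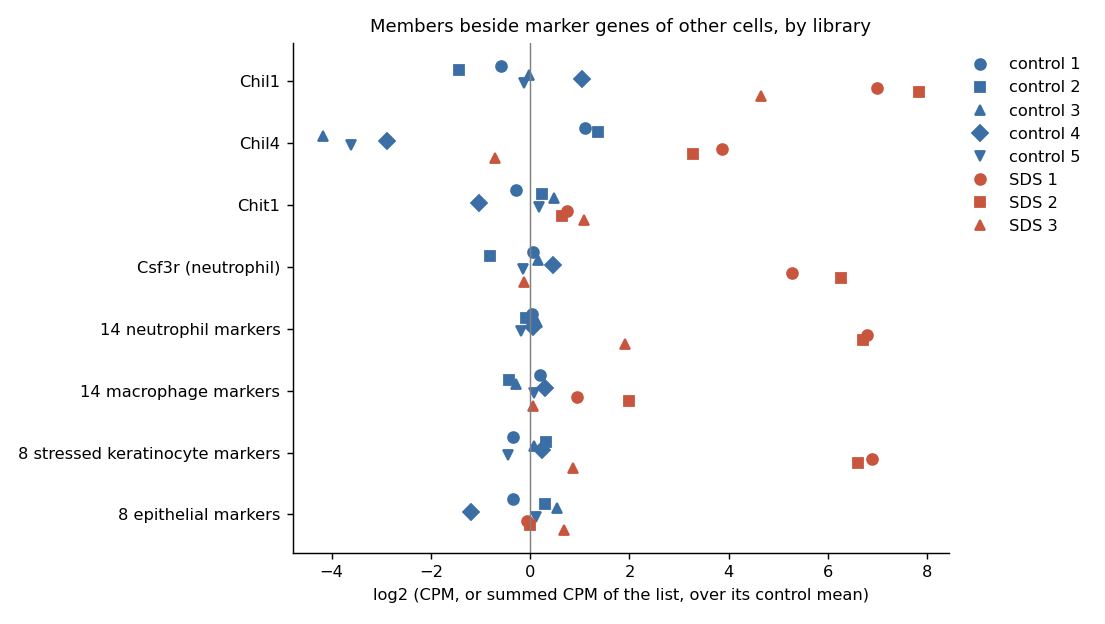
Log2 of the CPM over the control mean for Chil1, Chil4, Chit1 and the listed neutrophil marker Csf3r, and of the summed CPM for lists of neutrophil, macrophage, stressed keratinocyte and epithelial markers, in each control (blue) and SDS (red) library. In SDS library 3 (red triangles) Chil1 is 24.9, the neutrophil sum 3.78 and the macrophage sum 1.05 times the control mean.

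No tested receptor or partner of Chil1 was called. Over all tested genes 1.05% were called in either direction, so 0 of 8 is near that share. Of 10 listed genes 8 were tested and 0 passed in either direction by the edgeR quasi-likelihood test, with a median log2 fold change of 0.12. Tmem219, a co-receptor of Chil1, stood at 11.7 ± 0.741 CPM in controls (SD, n = 5) and at 11.9 ± 0.973 CPM in SDS (SD, n = 3; log2 0.02 ± 0.12, SE). The receptor chain Il13ra2 did not exceed 0.387 CPM in any library and Ptgdr2 did not exceed 0.197 CPM, and neither was tested. Galectin-3 (Lgals3), a binding partner, stood at 208 ± 61.9 CPM in controls and syndecan-1 (Sdc1) at 317 ± 84.9 CPM, with log2 fold changes of 0.27 for both. Stab1, the stabilin-1 that binds Chid1, measured 36.8 to 62.5 CPM in controls and 73.9, 137 and 23.6 CPM in SDS, and was called higher only when SDS library 3 was left out (log2 1.19 ± 0.27, SE).

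Of 17 genes listed as reported inducers of Chil1 or parts of their signalling, 12 were tested, with a median of 0.11. By the edgeR quasi-likelihood test 0 passed, near the 1.05% of all tested genes. The list also holds the receptor chains Il6ra and Il6st, transcription factors and Socs3. Il6, Il17a, Il22, Osm and Ifng were not tested with all libraries, so the count and median do not describe the inducers alone. Interleukin 1 beta (Il1b) measured 10.7, 12.7 and 0.876 CPM in SDS libraries 1, 2 and 3 against 0.512 to 1.76 CPM in controls. Interleukin 17A (Il17a) measured 2.40, 1.93 and 0 CPM and had a single count in control library 4 and none in the other controls. Interleukin 6 (Il6) did not exceed 0.137 CPM in any library. The acute-phase transcription factor Cebpd was higher in each SDS library than in any control, with 34.7 CPM as its lowest SDS value and 28.8 CPM as its highest control (log2 0.99 ± 0.21, SE), and did not pass. Without SDS library 3, 5 of 14 tested were called higher, Il17a, Il1b, Nfkb1, Osm and Cebpd, beside 4.98% of all 17662 genes tested in that fit. The abundant signal transducers Stat3 (log2 0.04) and Il6st (-0.09) did not pass with all libraries.

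Type 2 and alternative macrophage genes, which usually accompany Chil3 and Chil4, gave 1 call among 16 tested, with a median of 0.17. Over all tested genes 1.05% were called in either direction. The interleukin 13 receptor subunit Il13ra1 was called higher, with 57.5, 81.3 and 50.1 CPM in the SDS libraries and no control above 31.8 CPM (log2 1.16 ± 0.19, SE). Leaving out any library other than control library 4 or SDS library 3 ended that call. Il5, a type 2 cytokine, was lower in each SDS library (0.629, 0.668 and 0.709 CPM) than in any control (1.22 to 1.73 CPM). With all libraries Il5 was not called by the edgeR quasi-likelihood test (log2 -1.15), while the alternative method DESeq2 called it lower. Without SDS library 3, 6 of 16 tested were called, with Il5 the only one lower. In that fit 1222 of all 17662 tested genes were called in either direction. Called higher in that fit were Ccl22 (log2 4.112), Il4ra (1.374), Il13ra1 (1.309), Mrc1 (1.227) and Cd163 (1.115). These 5 exceeded every control in SDS libraries 1 and 2, the SDS libraries by which that fit picked them. This is therefore no sign of likeness to Chil4. All 5 were lowest of the group in SDS library 3, where Il13ra1, at 50.1 CPM, was still above every control. None of the 5 divided the controls as Chil4 did. Il13 had no count in any library and Il4 stayed at or under 1.07 CPM. Retnla, like Chil3 a marker of alternatively activated macrophages, was highest among SDS libraries in library 3 (107 CPM, against 52.5 and 44.4 CPM), where Chil4 was lowest. Its controls ranged from 62.9 to 135 CPM. Arg1 overlapped between the groups, with means of 195 and 241 CPM. Of 16 listed genes of glycan breakdown, the process in which Ctbs acts, 16 were tested, with a median of 0.16. By the edgeR quasi-likelihood test 0 passed, near the 1.05% of all tested genes. Ctsa, which protects lysosomal galactosidase and neuraminidase, gave 0.39 ± 0.11 (SE) and the fucosidase Fuca1 -0.09 ± 0.18 (SE).

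No other tested gene around Chil1 and Chit1 was called, where 1.05% of all tested genes were called in either direction. With 8 genes tested around this pair and 4 around Chil3 and Chil4, 0 calls is near that share. Within 200 kb of the pair lie 15 other annotated genes, of which 8 were tested and 0 passed by the edgeR quasi-likelihood test, with log2 fold changes from -0.64 for Mybph to 0.94 for Ppfia4. Mybph, a myosin-binding protein of muscle whose start lies 11.3 kb beyond that of Chil1, averaged 52.3 CPM in the controls and 33.7 CPM in the SDS libraries. Around Chil3 and Chil4, 4 of 16 other genes were tested and 0 passed, from -0.16 for Ovgp1 to -0.0023 for Wdr77. An unadjusted p under 0.05 was found for 3180 of the 17179 tested genes.

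**Figure D5:**
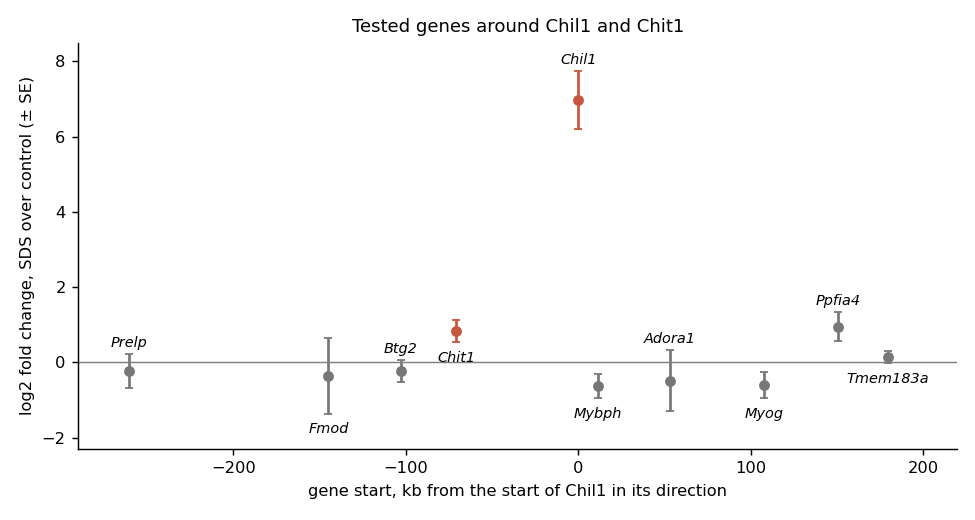
Log2 fold change of SDS over control (± SE of the fit) for the tested genes within 200 kb of Chil1 and Chit1, against the distance of their start from that of Chil1; members are red and other genes grey. Chil1 lies at 6.97 and the other genes between -0.64 and 0.94.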

How the data were processed

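RNA of 8 esophagus libraries was analysed, prepared by poly(A) selection and the NEBNext Ultra II kit per the labels' protocols. For each library the authors deposited a table of unnormalized read counts by gene. STAR 2.6.1c, Subread, FastQC, bcl2fastq and the build mm10 are named in the submitters' processing notes. Strand setting, annotation release and handling of multiply matching reads: not given in the sources used here. Symbols matched 48970 of 49315 identifiers.

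Counts were fitted in R 4.3.3 with edgeR 4.0.16: filterByExpr (minimum count 10, total 15) kept 17179 genes, scaled by TMM, and the quasi-likelihood test with group as its term was two-sided, with Benjamini-Hochberg adjustment at 0.05. An SE is the log2 fold change over the square root of F. The script was tested on simulated data, drawn without deviating libraries. Of genes changed 2-fold 42.9% were called, and of those changed 4-fold 87%, with 7 false calls among 16834 tested. A gene that was not called may thus still differ. No 2 libraries of a group were copies (lowest chi-square per degree of freedom 22.1). RPKM are the scaled CPM over the exon length of the tables. Coding stretches came from GENCODE M21, in which the family genes have the same start and end as in the tables.

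Members, lists and tests were chosen with earlier results of these data known. Named genes were the members, the other family genes, for each list its called genes (up to 4, ordered by p) or, with none, the 2 of highest mean CPM, the 10 genes nearest to Chil1 and called genes within 200 kb; further list genes were named after their values were seen. Alternatives were RLE and upper quartile scaling, no filter, 1 CPM in 3 libraries, DESeq2 1.42.0, limma-voom (limma 3.58.1), leaving out each library, and the replicate number as a block.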

Additional observations from a re-analysis of the deposited data

How the results depend on the processing

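The log2 fold change of Chil1 was positive in each of 16 alternatives, from 6.22 to 7.89, and Chil1 was called in 10 of them. Leaving out 1 library gave 6.22 to 7.46. Whether the replicate numbers pair the libraries was not settled. Same-numbered control and SDS libraries had correlations of their deviations of 0.311, -0.0056 and 0.307. Differently numbered ones among libraries 1 to 3 had correlations from -0.451 to 0.225. With a replicate block on libraries 1 to 3, Chil1 was at 7.08 and not called, and 0 genes were called in all and 0 in the pathway lists; this fit uses 6 libraries. The count of called genes, 180, was 1581 with DESeq2 and between 4 and 1222 when 1 library was left out (4 without control library 1, 7 without 2, 18 without 3 and 10 without 5; 56, 4 and 1222 without SDS library 1, 2 or 3). Without SDS library 3 and control library 4 together, an alternative chosen after seeing the data, it was 2077. Over the pathway lists DESeq2 called Il1b, Osm, Cebpd, Il13ra1, Il4ra, Ccl22 and Ctsa higher and Il5 lower. Without a filter Cebpd was called beside Il13ra1. The 1 call over these lists thus became 2 without a filter and 8 with DESeq2. It became 0 to 14 when 1 library was left out and 19 without SDS library 3 and control library 4. The cause was not tested. Chid1 ranged from -0.014 (without SDS library 3) to 0.092 when 1 library was left out, and was -0.040 without SDS library 3 and control library 4. The order of members in controls kept all 6 places with RLE factors, and 4 without control library 3 or 5, where Chil4 came before Chit1. Chil4 (2.37 to 3.78), Chil3 (0.81 to 2.93), Chit1 (0.52 to 0.98), Chid1 and Ctbs were called in none of the 16 alternatives. Depth limits Chil3 and the family genes with few counts.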

Other observations

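The split of the controls by Chil4 was also seen in other genes. They were found by ranking tested genes with a symbol on their likeness to Chil4 over the 5 controls, after the values were seen. How many genes share the split was not counted. The nearest was the iron-binding lactotransferrin Ltf, at 10.3 and 15.3 CPM in control libraries 1 and 2 and 0.406, 0.845 and 0.572 CPM in control libraries 3, 4 and 5. In SDS libraries 1, 2 and 3 Ltf measured 92.2, 89.7 and 0.542 CPM. The lipoxygenase Alox15, a type 2 response gene, measured 28.6, 32.4, 0.259, 3.62 and 0.229 CPM in controls 1 to 5 and 14.8, 9.52 and 10.5 CPM in SDS, so unlike Chil4 it was not highest in SDS. Gsdmc2, a gasdermin, measured 7.10 and 7.46 CPM in control libraries 1 and 2 and 0.777 to 1.37 CPM in the other controls. The labels give no difference between these control libraries.

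The 5 genes with the pattern nearest to Chit1, also ranked after the values were seen, were Serpinb3a (root mean square difference 0.0932), Casp1 (0.125), Gpx2 (0.141), Cbr2 (0.148) and Smpdl3b (0.149). Serpinb3a, a squamous serpin, measured 1089, 1625, 1744, 584 and 1405 CPM in controls and 2062, 1766 and 2585 CPM in SDS.

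In SDS library 3, where Chil1 was the 2nd most risen gene, liver and immune cell transcripts were among the 12 highest as well. On the log2 scale over their control means, albumin (Alb) measured -2.15, 0.67 and 4.00 in SDS libraries 1, 2 and 3, Cyp3a11 -1.21, 1.603 and 4.26, and Apoa1 -0.64, 1.05 and 3.56. The B cell genes Ms4a1 and Cd22 measured 0.91, 1.86 and 3.64, and 2.46, 2.77 and 3.55, and the macrophage gene Cd5l 1.66, 3.72 and 4.13. Their part in the Chil1 value was not tested.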
